A study of Mus musculus with 44 samples.

Results

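Depressive and euthymic states were compared in RNA from the paraventricular thalamic nucleus (PVT) of mice that carry Polg(D181A), within the class of samples that stained negative for cytochrome c oxidase (COX). The 8 libraries were chosen by their labels alone, as the 4 labelled Polg, depressive and COX- and the 4 labelled Polg, euthymic and COX-, out of 20 RNA libraries and 44 libraries in the whole series. All 8 came from adult mice of the C57BL/6 strain and share the mutation, the nucleus and the COX class, so the groups differ by the labelled behavioural state. The labels do not give which animals the libraries of a group came from or how many cells each holds, so the spread behind each p-value is that between libraries and may be technical. Libraries were made from total RNA with a low-input kit (Nugen Ovation SoLo, per the labels). They are called library 1 to 4 of their group below, in column order, which is only a name.

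Polg codes for the polymerase that copies mitochondrial DNA, and D181A changes a residue in its proofreading domain. From general knowledge of the line rather than from the labels, the mutant form is expressed from a transgene under the Camk2a promoter in forebrain neurons, where faulty mitochondrial DNA accumulates with age. COX is complex IV of the respiratory chain, partly encoded by mitochondrial DNA, and cells that have lost it appear unstained in a COX stain. The PVT is a midline thalamic nucleus of glutamatergic neurons that receives orexin and other peptide inputs and projects to the accumbens, amygdala and prefrontal cortex. These mice show spontaneous depression-like episodes and serve in research on bipolar disorder. The comparison asks which RNAs go with such an episode in COX-negative samples.

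Library quality overlapped between the states. Total counts were 73759105, 73448642, 28401367 and 37951787 in depressive libraries 1 to 4, against 46279480, 32886739, 26719334 and 107075336 in euthymic libraries 1 to 4. Genes with a count numbered 31059 to 35505 in the depressive group and 27148 to 33989 in the euthymic group. The 14 loci with most counts, nearly all predicted genes, took 61.1%, 53.5%, 3.45% and 26.95% of depressive libraries and 15.1%, 20.1%, 4.09% and 82.8% of euthymic ones. Euthymic library 4 thus stood apart, with the most counts, the fewest genes and the largest share in these loci. Longer genes had more counts, with rank correlations between counts and genomic span, across genes, of 0.813 to 0.831 in depressive and 0.793 to 0.834 in euthymic libraries. None of 5 library measures differed by an exact permutation test over 70 assignments (2-sided, smallest p possible 0.0286, adjusted p = 0.914 for each). Gene counts of library pairs were ranked alike to a similar degree, with a median rank correlation of 0.633 between depressive libraries, 0.645 between euthymic libraries and 0.646 between libraries of different states.

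**Figure D1:**
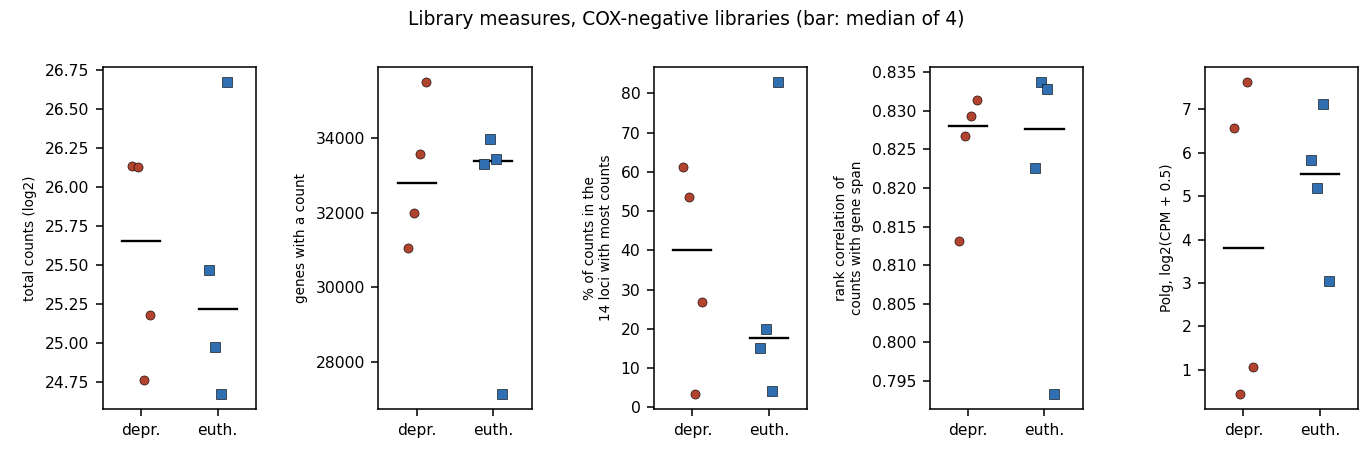
Each point is 1 COX-negative library, with depressive libraries on the left and euthymic ones on the right, and the bar is the median of 4. The panels show log2 total counts, the number of genes with a count, the percent of counts in the 14 loci with most counts, the rank correlation of counts with gene span, and Polg as log2(CPM + 0.5). The groups overlap in all 5 panels, and euthymic library 4 lies at 27148 genes and 82.8% of counts in the 14 loci.

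Polg itself (ENSMUSG00000039176, chr7:79446231-79467911, GRCm38.p6, which is mm10) was counted at 94.3, 0.861, 197.2 and 1.58 CPM (the scaled count rate used throughout) in depressive libraries, against 56.3, 35.8, 139.6 and 7.75 CPM in euthymic libraries. In the depressive group, libraries 1 and 3 lay far above libraries 2 and 4, and the groups overlapped. The median was 47.9 CPM in the depressive and 46.0 CPM in the euthymic group, and the mean was 73.5 ± 93.4 CPM in the depressive and 59.9 ± 56.8 CPM in the euthymic group (SD, n = 4 each). On the scale of log2(CPM + 0.5) the depressive mean was the lower one, at 3.92 ± 3.70 in depressive and 5.30 ± 1.71 in euthymic libraries (SD, n = 4 each). The fitted log2 change was 0.30 (SE 1.57, edgeR adjusted p = 0.939), and it was −0.61 without depressive library 3 and −0.07 without euthymic library 4. CPM use library sizes after scaling with edgeR's TMM factors (trimmed mean of M values). The factors were 0.413, 0.572, 1.32 and 2.02 in depressive libraries 1 to 4. In euthymic libraries 1 to 4 they were 0.807, 1.735, 1.25 and 0.126. A small factor raises CPM, so high CPM values of euthymic library 4 rest in part on its factor. Polg overlaps Fanci in the annotation, and whether counting used strand is not given in the sources used here, so reads of overlapping genes cannot be told apart.

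No gene passed between depressive and euthymic COX-negative libraries. The edgeR quasi-likelihood test called 0 of 28446 genes at an adjusted p under 0.05, which is 0.0%, and the smallest adjusted p was 0.0862. An unadjusted p under 0.05 was found for 6432 genes (22.6%), of which 3374 had higher fitted levels in depressive libraries (11.9% of genes tested) and 3058 lower ones (10.8%). Below, passing means an adjusted p under 0.05 in this edgeR fit, and 32 of the 47 genes named by rule passed with DESeq2 or without the filter on low counts. DESeq2 called 2565 genes, edgeR without a filter on low counts 1170 and limma's voom with quality weights 1. The gene called by voom was 2900097C17Rik, a locus without a known role, named after its values had been seen. It had 277.2, 7.75, 179.5 and 21.1 CPM in depressive libraries, against 0.135, 0.124, 0.0905 and 0.0745 CPM in euthymic ones, with a log2 change of 8.65 in voom (adjusted p = 0.0114) and of 10.11 in edgeR (adjusted p = 0.0862). Every depressive library lay above every euthymic library for it.

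Single libraries carried most group means. The highest library held a median of 64.5% of its group's summed CPM in the depressive group and 63.4% in the euthymic group, over all genes tested. More than 90% of the sum of the group with the higher mean lay in 1 library for 8655 genes (30.4%), and for 360 of the 500 genes with the smallest p. Means and medians pointed in opposite directions for 6724 genes (23.6%). Of 9168 genes whose means differed by more than 2 on the log2 scale, 2712 had medians that differed by more than 2 the same way. The median SD of log2(CPM + 0.5) within a group was 1.47, and the median fitted log2 change of all genes was −0.12, which is the level that single changes are read against.

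**Figure D2:**
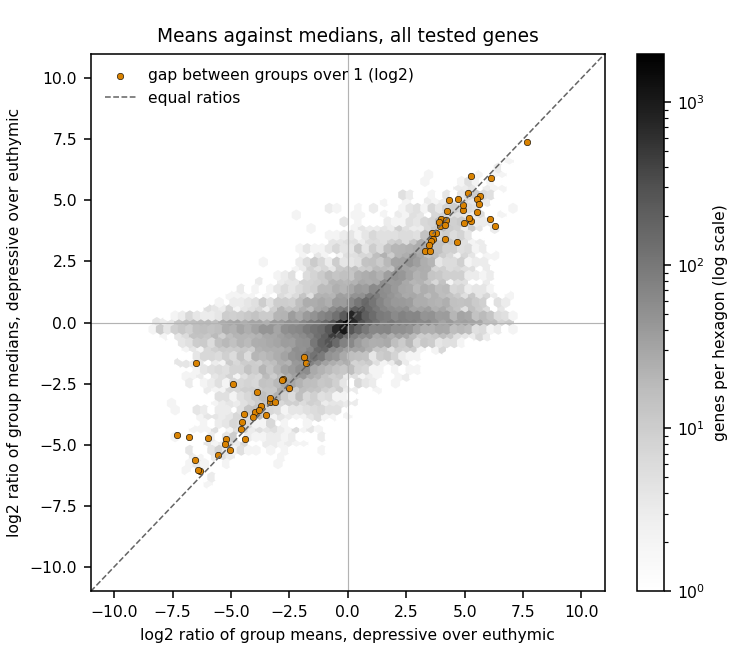
Each hexagon counts tested genes (log colour scale) by the log2 ratio of group means on the x axis and of group medians on the y axis, depressive over euthymic, after adding 0.5 CPM. Many genes lie along the horizontal line with a large difference of means and a difference of medians near 0, while the 62 genes with a gap between the groups over 1 on the log2 scale (orange points) lie nearer the dashed line of equal ratios.

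Separation of the libraries was then counted, since it does not depend on 1 high library. All 4 depressive libraries lay above all 4 euthymic ones for 252 genes (0.886% of genes tested) and below them for 453 genes (1.59%), together 705 (2.48%). Of the 70 assignments of 8 libraries to the groups, a share of 0.0286 separates any gene without tied values. The 2.48% is not above that share, so separation alone does not set a gene apart. In the COX-positive class the same counts were 270 (0.949%) and 296 (1.04%), from other libraries. The median gap was 0.19 for the genes with higher and 0.14 for those with lower depressive levels. The gap, taken as the lowest library of the higher group minus the highest library of the lower group in log2(CPM + 0.5), was under 0.1 for 278 of the 705 (39.4%), and 264 had under 10 counts in the lowest library of the higher group. It was over 1 for 32 genes with higher and 30 with lower depressive levels, and 49 of these 62 are annotated as protein coding. The COX-positive class held 49 genes with a gap that wide. Of the 705 genes, 420 had an unadjusted p under 0.05, and among the 500 genes of smallest p 88 (17.6%) were separated.

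The split by direction depended on how libraries were scaled. Of the separated genes, 35.7% had higher depressive levels with TMM scaling, 43.6% with DESeq2 size factors, 44.7% without the loci that dominate single libraries, 47.3% without a filter on low counts and 67.7% with total counts only. Total counts also gave fewer separated genes, 328, of which 169 were among the 705. The median log2 change of all genes was −0.12 with TMM, 0.00 with DESeq2 size factors, 0.01 without dominant loci and 0.08 with total counts. Between TMM and total counts single libraries moved far more than this median. The TMM factors ran from 0.126 in euthymic library 4 to 2.02 in depressive library 4. All 12 genes described next as having the widest gaps were separated the same way under each of these 3 other scalings.

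Predicted and clone-named loci, such as Gm20708 with the widest gap on the higher side (3.77) and Gm33248 on the lower side (3.37), were set aside. Among the genes left, the widest gaps with higher depressive levels were found for Pgap1, Stk36, Zmat1, Zdhhc20, Grhl1 and Cpne3. None passed in edgeR, and each had 4 of 4 depressive libraries above the euthymic range. Pgap1 (ENSMUSG00000073678, chr1:54473000-54557684), an enzyme of the endoplasmic reticulum that trims the lipid anchor of GPI-linked proteins, had 74.9, 415.8, 91.9 and 73.2 CPM in depressive libraries, against 6.98, 3.28, 5.4 and 3.43 CPM in euthymic ones. Its medians were 83.4 CPM in depressive and 4.41 CPM in euthymic libraries, and the gap, by which the gene was chosen, was 3.30. The fitted log2 change was 5.10 (SE 1.55, edgeR adjusted p = 0.0862). Stk36 (ENSMUSG00000033276, chr1:74601391-74636894), a kinase needed for motile cilia, had 268.8, 126.4, 95.5 and 26.3 CPM in depressive libraries, against 2.30, 0.547, 1.99 and 0.671 CPM in euthymic libraries, a log2 change of 6.55 (SE 1.73, edgeR adjusted p = 0.0862). Stk36 overlaps Rnf25 and Pgap1 overlaps the predicted gene Gm51623, so reads there could belong to either gene. Prrc2b, Kazn and Fam149a, described below, overlap predicted genes as well.

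Zmat1 (chrX:134971372-135009209), which codes for a zinc finger protein, had 57.2, 39.7, 101.9 and 16.3 CPM in depressive libraries, against 1.92, 1.61, 0.754 and 0.894 CPM in euthymic libraries. Zdhhc20 (chr14:57832702-57890831), a palmitoyltransferase, had 63.9, 48.6, 88.3 and 26.4 CPM in depressive libraries, against 3.08, 1.24, 4.10 and 2.16 CPM in euthymic libraries. No library of either group stood apart for these genes, and the highest depressive library held 47.4% and 38.9% of the group's sum. Grhl1 (chr12:24572232-24617391), a transcription factor of epithelia, had 95.6, 195.7, 48.3 and 93.4 CPM in depressive libraries, against 9.04, 1.92, 2.78 and 0.596 CPM in euthymic ones. Cpne3 (chr4:19519252-19570108), a phospholipid-binding copine, had 160.4, 35.9, 149.8 and 23.5 CPM in depressive libraries, against 1.03, 0.883, 4.86 and 0.820 CPM in euthymic ones, where library 3 was the highest. Their log2 changes were 5.37, 4.42, 4.91 and 5.60 in the order given (edgeR adjusted p = 0.0863, 0.10, 0.0862 and 0.0862).

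On the lower side, again with predicted loci set aside, the widest gaps were those of Prrc2b, Olfr1380, Olfr1381, Fam149a, Gtf2a1l and Kazn, and none passed in edgeR. Prrc2b (ENSMUSG00000039262, chr2:32151031-32234537), which codes for an RNA-binding protein that acts in translation initiation, had 3.17, 3.32, 3.46 and 2.24 CPM in depressive libraries, against 457.7, 31.2, 40.4 and 609.6 CPM in euthymic libraries. These values rest on 96, 139, 129 and 170 counts in depressive libraries and 16919, 1768, 1339 and 8178 in euthymic ones. On the TMM scale depressive levels were nearly equal, while the euthymic libraries formed a lower and a higher pair. Both patterns depend on the scaling, as the TMM factor of euthymic library 4 was 0.126. The medians were 3.25 CPM in depressive and 249.1 CPM in euthymic libraries, and the log2 change was −6.54 (SE 1.57, edgeR adjusted p = 0.0862). Kazn (ENSMUSG00000040606, chr4:142102390-142239401), a protein of cell junctions, had 11.4, 6.58, 18.5 and 10.1 CPM in depressive libraries, against 562.0, 62.1, 284.8 and 666.8 CPM in euthymic libraries, a log2 change of −5.08 (SE 1.32, edgeR adjusted p = 0.0862). Its highest euthymic library held 42.3% of that group's sum, so the mean did not rest on 1 library.

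Gtf2a1l (chr17:88665493-88715157), a germ cell form of a general transcription factor, had 2.37, 0.813, 1.64 and 2.05 CPM in depressive libraries, against 60.7, 59.9, 9.41 and 858.3 CPM in euthymic ones. Fam149a (chr8:45336715-45382291) had 0.792, 3.30, 0.375 and 1.73 CPM in depressive libraries, against 13.3, 36.2, 72.2 and 188.8 CPM in euthymic ones. Euthymic library 4 was the highest for both in CPM, which rests in part on its TMM factor of 0.126. For Fam149a it had 2533 counts out of 107075336, against 2392 out of 26719334 in euthymic library 3. The remaining pair are olfactory receptor genes that lie next to each other, 11.2 kb apart. Olfr1380 (chr11:49563923-49564858) had 0.132, 0.0957, 0.0268 and 0.119 CPM in depressive libraries, against 2.19, 21.8, 6.97 and 340.8 CPM in euthymic ones, where library 4 held 91.7% of the sum. That share rests in part on the same TMM factor. Euthymic library 4 had 4572 counts of Olfr1380 out of 107075336, and euthymic library 2 had 1234 out of 32886739. Olfr1381 (chr11:49551749-49552684) had 0.297, 0.598, 0.831 and 0.435 CPM in depressive libraries, against 5.60, 23.3, 4.46 and 33.2 CPM in euthymic ones.

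**Figure D3:**
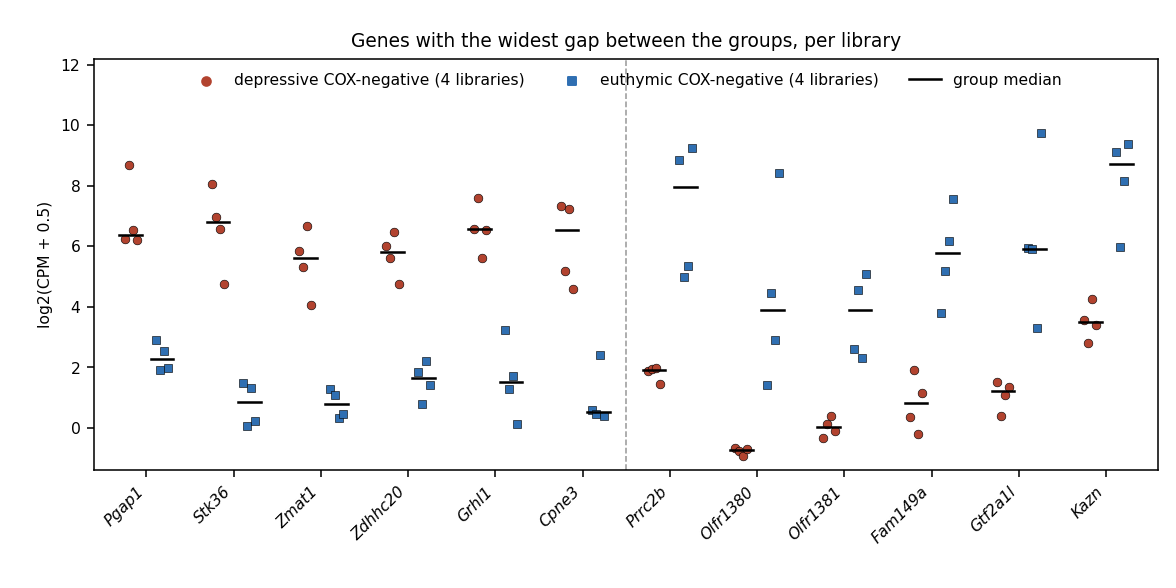
Each point is 1 library, as log2(CPM + 0.5), for the 12 genes, predicted loci set aside, with the widest gap between depressive (circles, left) and euthymic (squares, right) COX-negative libraries, with bars at the group medians. The 6 genes left of the dashed line are higher and the 6 right of it lower in depressive libraries, and no gene has overlapping groups, with Prrc2b at 3.17, 3.32, 3.46 and 2.24 CPM in depressive libraries and at least 31.2 CPM in each euthymic one.

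The 250 bases before an annotated start of transcription were read for these genes from RefSeq (GRCm38.p6), where 11 of the 12 matched. That start was the end of the gene's span for Pgap1 but lay 117 bases inside it for Prrc2b. Part of the Prrc2b window is thus within the gene. It also lay inside the span for Gtf2a1l (3167 bases), Zdhhc20 (495), Stk36 (64) and Grhl1 (55). The windows of the leading gene in each direction are shown because the PVT chromatin tables of the series, made from nuclei sorted on the neuronal protein NeuN, have an H3K27ac peak over each. Pgap1 also has a peak of open chromatin there and Prrc2b has none. Capitals mark GGGCGG on either strand, the GC box of many promoters, and overlapping matches are joined. It occurs in 32.7% of the 32851 windows of that length in the table, so a match is no feature particular to these genes. Pgap1 (chr1:54557685-54557934, minus strand) holds 2 matches and Prrc2b (chr2:32150898-32151147, plus strand) 6.
Pgap1: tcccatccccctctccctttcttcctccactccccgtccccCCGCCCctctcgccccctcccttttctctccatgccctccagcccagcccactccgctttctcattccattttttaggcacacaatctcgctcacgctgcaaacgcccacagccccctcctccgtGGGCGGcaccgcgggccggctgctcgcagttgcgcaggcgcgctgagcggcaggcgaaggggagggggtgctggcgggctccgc
Prrc2b: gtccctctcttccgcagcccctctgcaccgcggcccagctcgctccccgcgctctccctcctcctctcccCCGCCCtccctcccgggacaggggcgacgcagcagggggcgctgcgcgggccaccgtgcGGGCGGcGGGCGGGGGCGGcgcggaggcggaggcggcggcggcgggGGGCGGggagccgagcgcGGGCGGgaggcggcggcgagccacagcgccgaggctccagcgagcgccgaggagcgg

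The windows of the neighbouring olfactory receptor genes are shown because they are near copies, with 239 of 255 aligned positions identical (93.7%). Neither has a peak of H3K27ac or open chromatin. Capitals mark the bases that differ between them or are absent from the other. How the authors' counting treated reads that fit both genes is not given in the sources used here, so the values of Olfr1380 and Olfr1381 may share reads and are uncertain. They lie at chr11:49563673-49563922 and chr11:49551499-49551748, both on the plus strand.
Olfr1380: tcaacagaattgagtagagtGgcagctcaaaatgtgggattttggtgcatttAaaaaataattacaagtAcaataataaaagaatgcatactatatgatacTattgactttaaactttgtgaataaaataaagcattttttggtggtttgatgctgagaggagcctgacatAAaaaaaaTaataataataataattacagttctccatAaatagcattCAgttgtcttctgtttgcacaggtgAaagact
Olfr1381: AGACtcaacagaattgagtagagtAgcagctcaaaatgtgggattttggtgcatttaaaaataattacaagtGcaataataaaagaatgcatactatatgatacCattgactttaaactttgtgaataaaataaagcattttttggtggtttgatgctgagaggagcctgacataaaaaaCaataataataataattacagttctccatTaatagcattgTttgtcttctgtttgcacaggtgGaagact

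With the same loci set aside and an average of 5 CPM or more asked of 1 group, the genes with the smallest p were largely others, as 2 of 16 (Gtf2a1l and Prrc2b) were also among those with the widest gaps. All 16 had an edgeR adjusted p of 0.0862, and the groups of 7 were separated. With higher fitted levels in depressive libraries stood Klk11, a secreted protease, the olfactory receptor genes Olfr23 and Olfr385, Pink1, Nfkb2, Ankrd23, Prrg2 and Olfr1010, which RefSeq lists as a transcribed pseudogene. More than 90% of the depressive sum lay in 1 library for Olfr385, Pink1, Ankrd23, Prrg2 and Olfr1010. Pink1, the kinase that marks damaged mitochondria for removal, had 0.132, 29.7, 291.5 and 0.237 CPM in depressive libraries, against 0.433, 0.159, 0.151 and 0.0745 CPM in euthymic libraries. Depressive library 1 lay below 3 of the 4 euthymic libraries, and the groups overlapped. The medians were 14.97 CPM in depressive and 0.155 CPM in euthymic libraries, and the log2 change was 8.58 (SE 2.15, edgeR adjusted p = 0.0862).

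Nfkb2, a subunit of NF-kappa-B, had 0.0989, 116.9, 306.9 and 5.89 CPM in depressive libraries, against 0.243, 0.0530, 0.121 and 0.894 CPM in euthymic libraries. Ankrd23 had 0, 167.3, 0.0805 and 0.277 CPM in depressive libraries, against 0.0271, 0.0530, 0.0302 and 0 CPM in euthymic ones. The difference for Ankrd23 was thus 1 library, and its medians were 0.179 CPM in depressive and 0.0286 CPM in euthymic libraries. In Klk11, depressive libraries 1, 3 and 4 had 132.9, 3.84 and 31.2 CPM and library 2 had 0.0239, while euthymic libraries lay between 0 and 0.0603 CPM. A value of 0.0239 CPM is 1 count in depressive library 2, and 1 count was worth 0.0132 to 0.0330 CPM in depressive and 0.0177 to 0.0745 CPM in euthymic libraries.

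On the lower side by smallest p stood Amer3, Pcdh18, Fam217b, Fbxw4, Uts2 and Hey1 besides Gtf2a1l and Prrc2b. Fbxw4, a substrate receptor of a ubiquitin ligase, had 3.07, 1.34, 7.24 and 2.27 CPM in depressive libraries, against 938.8, 55.2, 16.3 and 353.7 CPM in euthymic libraries, with a gap of 1.12. Amer3, which codes for a protein that binds APC, had 0.0395 to 0.165 CPM in depressive libraries, against 0.379, 23.6, 170.8 and 498.0 CPM in euthymic libraries. Its medians were 0.115 CPM in depressive and 97.2 CPM in euthymic libraries. Uts2, the precursor of urotensin II, had 0 to 0.0989 CPM in depressive libraries, against 0.0271, 0.0883, 0.0603 and 584.8 CPM in euthymic libraries. The other euthymic libraries lay within the depressive range, and its medians were 0.0468 CPM in depressive and 0.0743 CPM in euthymic libraries. Uts2 overlaps Per3 in the annotation, and Fam217b, Fbxw4, Prrg2 and Nfkb2 also overlap other genes, so their reads are uncertain.

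**Figure D4:**
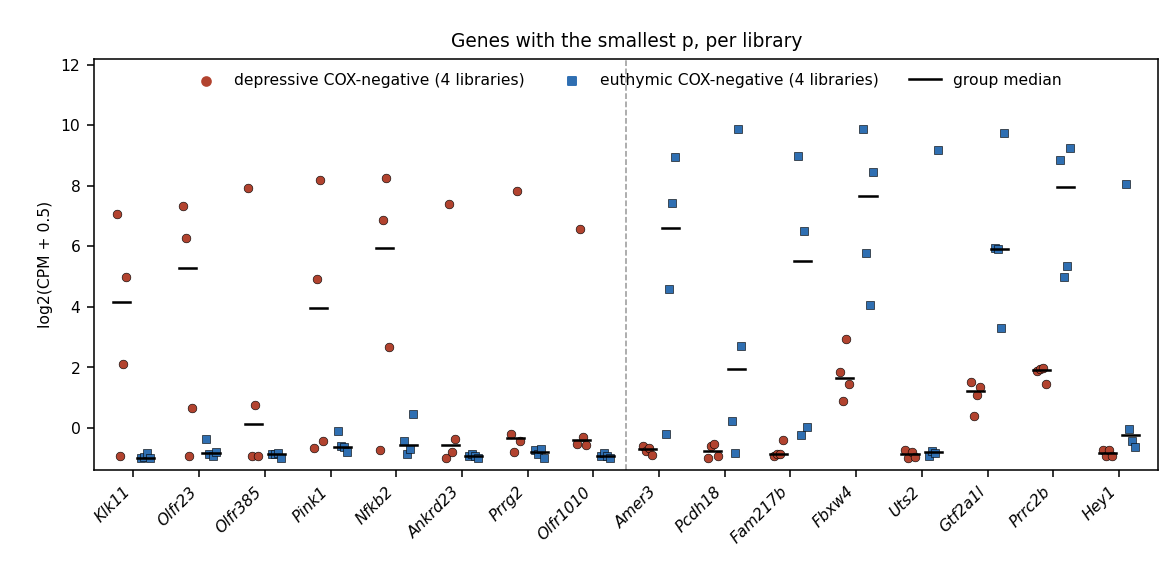
Each point is 1 library, as log2(CPM + 0.5), for the 16 genes with the smallest p, 8 per direction, among genes that average 5 CPM or more in 1 group, predicted loci set aside, depressive libraries as circles on the left and euthymic ones as squares on the right, with bars at the group medians. For 8 of the 16 genes more than 90% of the higher group's sum lies in 1 library, as in Ankrd23 with 167.3 CPM in depressive library 2 and Uts2 with 584.8 CPM in euthymic library 4.

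The same comparison in COX-positive libraries gave a mixed picture for these genes. Of the 12 genes with the widest gaps, 7 had a fitted change of the same sign there and 2, Grhl1 and Kazn, were separated the same way. Grhl1 had 10.98, 15.6, 25.7 and 18.6 CPM in depressive COX-positive libraries, against 1.47, 1.66, 7.98 and 1.77 CPM in euthymic COX-positive ones. Kazn had 9.44, 0.868, 12.05 and 7.44 CPM in depressive COX-positive libraries, against 66.5, 21.4, 14.9 and 35.8 CPM in euthymic COX-positive ones. Pgap1 was not separated there, with 26.1, 1.18, 19.2 and 26.997 CPM in depressive and 175.9, 15.9, 5.33 and 141.8 CPM in euthymic COX-positive libraries. Over all genes, 13 were separated in both COX classes. That is 1.84% of the COX-negative set, against 1.99% of all genes tested that were separated in the COX-positive class. It is 2.30% of the 566 genes of the COX-positive set, against 2.48% of all genes tested that were separated in the COX-negative class. Neither share is above that over all genes. The direction was the same in both classes for 6 of them and opposite for 7. Creb5, a transcription factor of the CREB family named after its values had been seen, was among the 6, with 29.4, 12.5, 48.2 and 64.9 CPM in depressive COX-negative libraries, against 122.3, 118.2, 313.9 and 883.1 CPM in euthymic COX-negative ones.

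A test of whether the state change differed between COX classes called 0 of 28446 genes (0.0%) with edgeR, with a smallest adjusted p of 0.0534 and 6344 genes (22.3%) at an unadjusted p under 0.05. With DESeq2 size factors 378 genes were called, with a stricter filter 151, without dominant loci 280, without a filter 1582 and with DESeq2 1997, while voom called 0. Hcrtr2, which codes for an orexin receptor, belongs to the fixed set of named genes and was not picked by this test. Its adjusted p was tied at the smallest value with other genes, Stk36 and Gtf2a1l among them. Hcrtr2 had 2.87, 112.8, 11.6 and 96.0 CPM in depressive COX-negative libraries, against 2.08, 1.501, 2.78 and 1.19 CPM in euthymic COX-negative ones. In the COX-positive class it had 3.92, 1.01, 2.62 and 15.6 CPM in depressive libraries, against 193.7, 17.5, 3.68 and 128.4 CPM in euthymic libraries. The log2 changes were 4.88 in the COX-negative and −3.89 in the COX-positive class, a difference of 8.77 (SE 2.24, edgeR adjusted p = 0.0534), which did not pass.

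Gene lists were described by counts, because they were chosen with results of these data known. The 33 lists of cell type markers and pathways held 710 tested genes, of which 0 were called, 6 were separated with higher and 9 with lower depressive levels, together 2.11%. That share is near the 2.48% over all genes tested. An unadjusted p under 0.05 was found for 166 of them (23.4%), against 22.6% over all genes. In 24 of all 38 lists no member was separated. List medians of the fitted log2 change ran from −1.23 to 0.97, and 14 lists had a median of the opposite sign when group medians were used in place of the fit. For 24 lists the median changed sign when 1 library was left out, and for 6 it changed sign with a scaling.

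**Figure D5:**
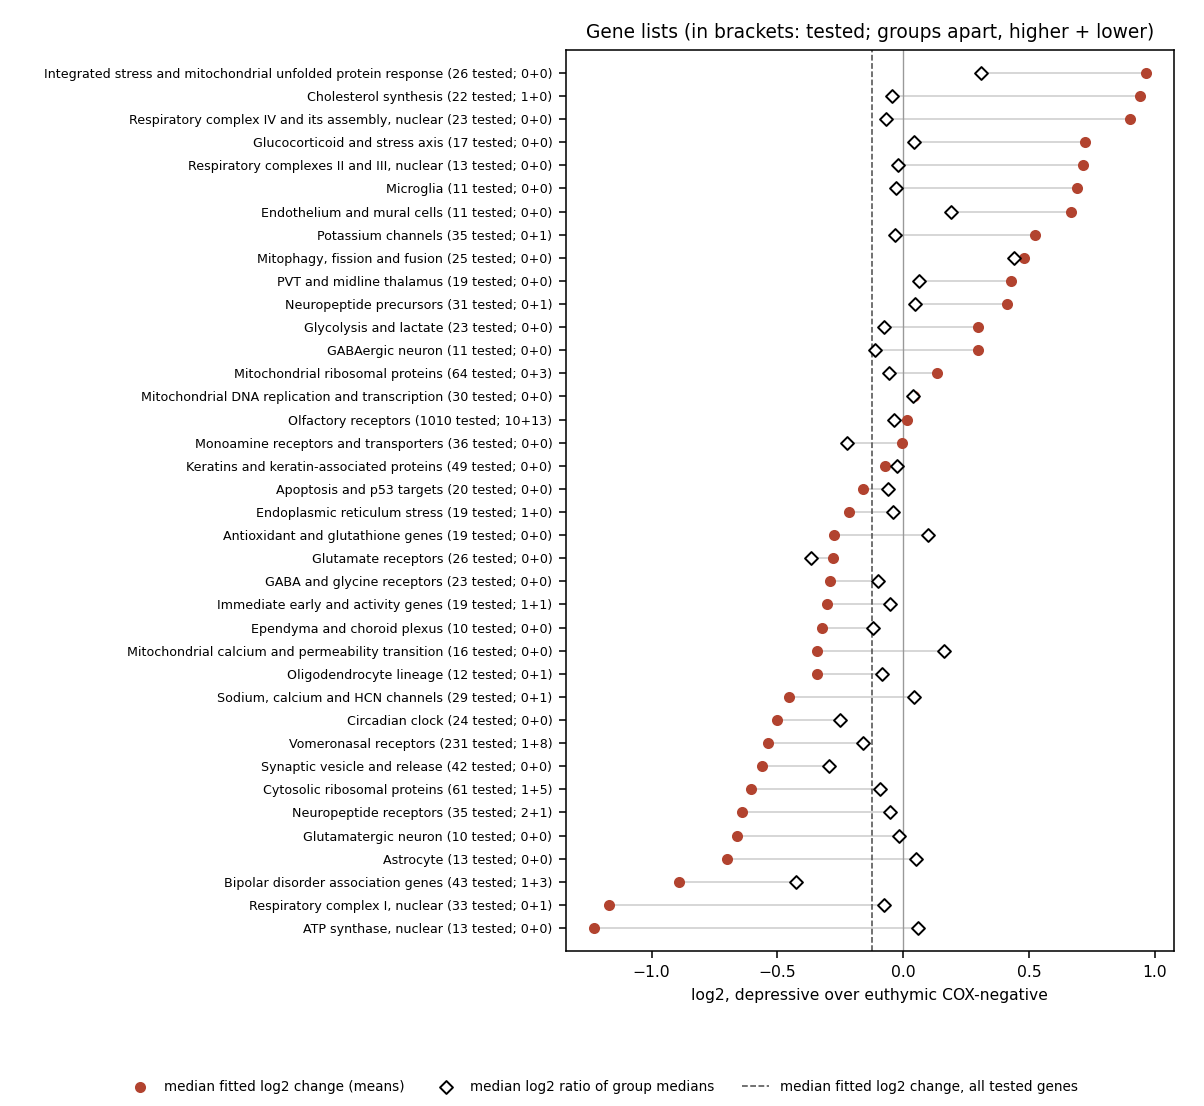
Each row is a gene list, with the median fitted log2 change of its tested members (filled circle) and the median log2 ratio of group medians (open diamond), depressive over euthymic COX-negative, and the dashed line is the median of all tested genes at −0.12. Brackets give the number tested and the members separated, higher plus lower, and the filled circles run from −1.23 for ATP synthase to 0.97 for the integrated stress response, while most diamonds stay close to 0.

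Nuclear genes of the respiratory chain gave large list medians and few separated members. The 33 tested genes of complex I, which feeds electrons from NADH, had a median log2 change of −1.17, against −0.08 by group medians. Members went both ways, with a fitted change above 0 for 14 and below 0 for 19. An unadjusted p under 0.05 was found for 21 (63.6%, against 22.6% over all genes), and 1 was separated (3.03%, against 2.48%). That gene was Ndufs3, a core subunit, with 0.429, 0.144, 0.241 and 0.211 CPM in depressive libraries, against 1.70, 3.92, 0.754 and 0.447 CPM in euthymic libraries (log2 change −2.74, SE 1.35, edgeR adjusted p = 0.222). Depressive library 1 and euthymic library 4 nearly touched. Complexes II and III (13 tested) had a median of 0.72 by the fit and −0.02 by group medians, between −0.72 and 3.32 with 1 library left out. Complex IV and its assembly, the enzyme behind the COX stain, had 0.90 and −0.07 over 23 tested genes, and the 13 genes of ATP synthase −1.23 and 0.06. None of the genes of complexes II to IV or ATP synthase was separated. Leaving out 1 library moved the complex I median between −1.87 and −0.01, that of complex IV between −0.21 and 1.21 and that of ATP synthase between −1.99 and 0.06.

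Genes that maintain mitochondria showed no separated member. For replication and transcription of mitochondrial DNA, 30 tested genes had a median of 0.04 by the fit and 0.04 by group medians. Twnk, the helicase of mitochondrial DNA, had 1.98, 1.08, 1.02 and 0.487 CPM in depressive libraries, against 489.8, 0.512, 3.02 and 0.522 CPM in euthymic libraries. Its log2 change of −6.76 (SE 2.08, edgeR adjusted p = 0.0862) thus came from euthymic library 1, which held 99.2% of the group's sum, and Twnk overlaps Mrpl43. Mitophagy, fission and fusion genes (25 tested) had a median of 0.48 by the fit and 0.44 by group medians, between −0.08 and 2.23 with 1 library left out. Ppif, which codes for cyclophilin D, a regulator of the mitochondrial permeability pore, had 0.0660, 0.0478, 0.107 and 0.263 CPM in depressive libraries, against 4.44, 0.0706, 0.0603 and 0 CPM in euthymic libraries. Its log2 change was −3.20 (SE 1.88, edgeR adjusted p = 0.321), and 1.31 without euthymic library 1.

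Genes of the integrated stress response and of sterol synthesis had the highest fitted list medians, and none passed. The integrated stress and mitochondrial unfolded protein response (26 tested) had a median of 0.97 by the fit and 0.31 by group medians, it stayed between 0.45 and 1.51 with 1 library left out, and no member was separated. Cholesterol synthesis genes (22 tested) had 0.94 by the fit and −0.04 by group medians. Endoplasmic reticulum stress genes (19 tested) had a fitted median of −0.22, which was 0.10 with total counts only. Among them Pdia3, a disulfide isomerase, had 7.98, 10.9, 6.33 and 35.2 CPM in depressive libraries, against 2.11, 0.741, 0.905 and 0.596 CPM in euthymic ones (log2 change 3.79, SE 1.61, edgeR adjusted p = 0.156). All 4 depressive libraries were above the euthymic range by a gap of 1.39, and Pdia3 overlaps Catsper2.

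Peptide receptors, through which inputs such as orexin act, had separated members in both directions and none passed. Of 35 tested receptors, Hcrtr2 and Vipr2 were separated with higher and Ghsr with lower depressive levels (8.57%, against 2.48% over all genes). The list median was −0.64 by the fit, −0.05 by group medians and between −0.72 and −0.01 with 1 library left out. Vipr2, a receptor for vasoactive intestinal peptide, had 104.1, 10.1, 2.47 and 43.3 CPM in depressive libraries, against 0.730, 0.777, 2.26 and 1.42 CPM in euthymic libraries (log2 change 4.95, SE 1.62, edgeR adjusted p = 0.0899). Depressive library 3 lay just above euthymic library 3. In the COX-positive class Vipr2 was separated the other way, with 1.83, 0.452, 0.866 and 1.72 CPM in depressive and 2.87, 13.5, 6.46 and 1.93 CPM in euthymic libraries, and the difference of the changes was 7.29 (edgeR adjusted p = 0.0665). Ghsr, the ghrelin receptor, had 0.0660, 0.0239, 0.0268 and 0.0395 CPM in depressive libraries, against 0.730, 0.477, 0.181 and 0.0745 CPM in euthymic libraries, where the lowest value was 1 count. Hcrtr1, the other orexin receptor, had 0.0330, 0.0718, 0.188 and 0.303 CPM in depressive libraries, against 0.541, 0.124, 1.03 and 0 CPM in euthymic ones, and the groups overlapped (log2 change −1.49, SE 1.77, edgeR adjusted p = 0.677). Of 31 tested peptide precursors, Rln3, which codes for relaxin-3, was separated by a gap of 0.00 and at most 0.0745 CPM.

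Ion channel and transmission genes held few separated members. Scn2a, a voltage-gated sodium channel of axons, had 17.4, 2.87, 5.95 and 6.19 CPM in depressive libraries, against 20.4, 76.5, 52.4 and 29.1 CPM in euthymic libraries, with medians of 6.07 CPM in depressive and 40.8 CPM in euthymic libraries. The highest depressive and the lowest euthymic library were close, and the log2 change of −2.46 (SE 1.26, edgeR adjusted p = 0.245) did not pass. Kcnn1, a calcium-activated potassium channel, had 0.330, 0.359, 0.268 and 0.303 CPM in depressive libraries, against 11.4, 0.424, 1.12 and 1.04 CPM in euthymic libraries. Synaptic vesicle and release genes had a median of −0.56 by the fit and −0.30 by group medians over 42 tested genes, with 0 separated. Glutamate receptors (26 tested) had −0.28 and −0.37, and GABA and glycine receptors (23 tested) −0.29 and −0.10, also with 0 separated. The fitted median of the GABA and glycine receptors was 0.12 with total counts only. Monoamine receptors and transporters had medians of −0.003 and −0.22 over 36 tested genes and 0 separated, and the fitted one was 0.14 with DESeq2 size factors.

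Immediate early genes, which report recent neuronal activity, had separated members in both directions, 2 of 19 tested (10.5%, against 2.48% over all genes). Nr4a1, an orphan nuclear receptor, was separated with 0.330, 0.167, 0.966 and 0.474 CPM in depressive libraries, against 1.87, 77.4, 1.93 and 124.0 CPM in euthymic libraries (log2 change −6.72, SE 1.82, edgeR adjusted p = 0.0862). Its euthymic libraries formed a low and a high pair in CPM, with 69, 4382, 64 and 1663 counts. Egr1, a zinc finger transcription factor, was separated the other way at low levels, with 0.0989, 0.526, 0.215 and 0.119 CPM in depressive libraries, against 0.0271, 0.0530, 0.0905 and 0.0745 CPM in euthymic ones. These rest on 3, 22, 8 and 9 counts in depressive and 1, 3, 3 and 1 in euthymic libraries. Depressive library 1 and euthymic libraries 2 and 3 had equal counts, so their order depends on the scaling. The gap was 0.02 (edgeR adjusted p = 0.507). Fos had 12, 1, 3 and 11 counts in depressive libraries and 3, 2, 1 and 1 in euthymic libraries, and was below the filter, so it was not tested. Circadian clock genes (24 tested) had a median of −0.50 by the fit and −0.25 by group medians, and none was separated. Per1, a light-responsive clock gene, had medians of 0.748 CPM in depressive and 0.958 CPM in euthymic libraries, and a log2 change of −0.53 (SE 1.37, edgeR adjusted p = 0.868). Nr3c1, the glucocorticoid receptor, had 269.3, 11.4, 2.41 and 22.5 CPM in depressive libraries, against 5.17, 30.5, 8.75 and 8.65 CPM in euthymic libraries. Its log2 change of 2.52 (SE 1.41, edgeR adjusted p = 0.290) was −0.12 without depressive library 1.

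Genes near association signals for bipolar disorder had a list median below 0, with a fitted change above 0 for 13 and below 0 for 30 of 43 tested genes, and none passed. The median was −0.89 by the fit and −0.43 by group medians, and it lay between −1.12 and −0.10 with 1 library left out. An unadjusted p under 0.05 was found for 6 of them (13.95%), which is below the 22.6% over all genes, and 4 were separated (9.30%, against 2.48%). Adcy2, an adenylyl cyclase, had 15.6, 62.3, 29.3 and 46.0 CPM in depressive libraries, against 225.9, 95.6, 252.7 and 649.7 CPM in euthymic libraries (log2 change −2.998, SE 1.13, edgeR adjusted p = 0.115). In the COX-positive class its log2 change was 1.68, and the difference of −4.68 did not pass (edgeR adjusted p = 0.0838). Scn2a, described above, was also separated with lower levels. So was Thsd7a, named after its values had been seen, with 23.1, 134.3, 30.7 and 98.8 CPM in depressive libraries, against 148.9, 191.2, 474.1 and 230.6 CPM in euthymic libraries. Erbb2, a receptor partner in neuregulin signalling, was separated with 1.12, 64.1, 1.18 and 0.882 CPM in depressive libraries, against 0.271, 0.406, 0.453 and 0.820 CPM in euthymic libraries. Depressive library 2 held 95.3% of that sum, and Erbb2 overlaps Mien1.

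Ribosomal protein genes of the cytosol had 6 of 61 tested members separated (9.84%, against 2.48% over all genes), 1 higher and 5 lower in depressive libraries. These genes were named after their values had been seen. Rpl3 had 0.462, 0.335, 0.536 and 0.408 CPM in depressive libraries, against 1.27, 0.918, 0.724 and 1.71 CPM in euthymic libraries, and Rps3a1 had 0.144 to 0.671 against 0.688 to 1.49 CPM. Rps25, Rpl6 and Rpl12 were lower too, with at most 0.105 CPM in any depressive library. Euthymic library 1 had 599, 27.8 and 67.9 CPM, and the other euthymic libraries at most 1.21 CPM. The groups nearly touched near the worth of a few counts. Rpl6 and Rpl12 had 0.106 CPM in euthymic library 2, against 0.0989 CPM in depressive library 1. Rps25 had 0.151 CPM in euthymic library 3, against 0.105 CPM in depressive library 4. Rps14 was at 0 counts in all 4 euthymic libraries and at 0.0239 to 0.184 CPM in depressive ones, which is 1 count in depressive libraries 1, 2 and 3. Ribosomal protein genes have many near-identical pseudogene copies in the mouse genome, so their counts are uncertain. Mitochondrial ribosomal proteins had 3 of 64 members separated (4.69%, against the same 2.48%), Mrps14, Mrps16 and Mrpl18, all with lower depressive levels. They had at most 0.0536, 0.134 and 0.0922 CPM in depressive libraries, against at least 0.0541, 0.194 and 0.189 CPM in euthymic ones. The groups of Mrps14 thus lay closer than the worth of 1 count. Olfactory receptors, which act in the nose, had 23 of 1010 tested members separated (2.28%), close to the background.

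Markers were checked against the labelled tissue, and their part in the differences above was not tested. Calb2, which codes for calretinin and marks PVT neurons, had 0.561, 58.6, 1.05 and 26.5 CPM in depressive libraries, against 4.57, 0.989, 1.72 and 2.09 CPM in euthymic ones (log2 change 3.21, SE 1.76, edgeR adjusted p = 0.280), and the groups overlapped. Gbx2, a thalamic transcription factor, was at 0 in 2 of the 8 libraries and reached 0.974 CPM at most. Other PVT markers went both ways. Depressive medians were lower for Rora (204.5 against 735.7 CPM), Tcf7l2 (22.3 against 91.5 CPM) and Lef1 (2.94 against 7.96 CPM). They were higher for Slc17a6 (9.25 against 4.32 CPM) and nearly equal for Lhx2 (1.89 against 1.81 CPM). None of the 19 tested genes of the PVT list was separated. Summed over the 20 genes of the PVT list, levels were 723.8 to 2288 CPM in depressive and 903.2 to 2142 CPM in euthymic libraries, with 17 genes counted in every library. Markers of glutamatergic neurons summed to 259.0 to 361.8 CPM in depressive and 184.6 to 1112 CPM in euthymic libraries. Those of GABAergic neurons summed to 11.7 to 117.3 CPM in depressive and 11.1 to 492.4 CPM in euthymic libraries. Summed oligodendrocyte markers were 115.03 to 150.1 CPM in depressive libraries, above the 8.72 to 103.9 CPM of euthymic ones, and 0 of 12 tested members were separated with higher levels. Mag, a myelin adhesion protein, was separated with lower levels, at 0.429, 0.191, 0.402 and 0.237 CPM in depressive libraries, against 1.16, 13.3, 10.2 and 0.745 CPM in euthymic ones. Microglial markers summed to 108.2 to 277.3 CPM in depressive and 35.3 to 115.1 CPM in euthymic libraries, and astrocyte markers to 201.3 to 446.1 CPM in depressive and 213.8 to 1413 CPM in euthymic libraries. Endothelial and mural markers summed to 120.9 to 702.9 CPM in depressive and 134.9 to 271.6 CPM in euthymic libraries. Among them Cldn5 was at 0 in 5 of the 8 libraries, while Pecam1 had 8.79 to 46.5 CPM and Flt1 2.98 to 363.3 CPM over all 8. Markers of ependyma and choroid plexus summed to 5.98 to 158.9 CPM in depressive and 2.91 to 311.3 CPM in euthymic libraries, where Ttr reached at most 0.362 CPM and Foxj1 was at 0 in 3 of the 8 libraries and reached 119.1 CPM in euthymic library 1. In such samples, fewer cells of a type and less RNA per cell cannot be told apart.

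Separated genes were also set beside all tested genes by peaks and genomic span. Among protein-coding genes, a PVT H3K27ac peak within 1000 bp of a gene end was found for 63.3% of those with higher and 57.6% of those with lower depressive levels, against 59.1% of all tested. Open chromatin gave 68.0%, 65.3% and 63.7% in the same order. The median genomic span was 26.5 kb for genes with higher and 15.9 kb for genes with lower depressive levels, against 18.6 kb for all tested. Among protein-coding genes it was 35.5 kb and 18.3 kb, against 21.9 kb for all tested. The median of mean levels was 14.7 CPM for genes with higher and 2.48 CPM for genes with lower depressive levels, against 4.06 CPM for all tested. The 500 genes with the smallest p had a shorter median span, 9.08 kb, and fewer H3K27ac peaks, 53.7%. These are descriptions, and 82.6% of the genes tested had a span in RefSeq.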

How the data were processed

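RNA was measured as raw read counts per gene in a table deposited by the authors, while the sources used here do not give the counted feature or the strand setting. Tools listed in the submitters' processing notes are featureCounts, Subread, STAR, DESeq2 and HOMER, with mm10 as the build and no roles. No column belonged to other samples. Of 53715 genes, 53620 had a symbol and 37793 a span in RefSeq (GRCm38.p6). The members and gene lists were chosen with earlier results of these data known.

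All 20 RNA libraries were fitted by group in edgeR 4.0.16 (R 4.3.3; TMM scaling, filterByExpr, robust quasi-likelihood, 15 residual degrees of freedom, Benjamini-Hochberg adjustment, threshold 0.05), which shares 1 estimate of spread, a biological coefficient of variation of 1.36. The method was tested on simulated data. Groups were separated where no CPM values overlapped, and gaps used log2(CPM + 0.5). The text names a fixed set of genes, then, with predicted and clone-named loci set aside, 8 genes per direction by smallest p (mean of at least 5 CPM in 1 of the groups), 6 per direction by widest gap, and of each list the separated member of smallest p per direction. Alternatives were other scalings and filters, fewer libraries in the fit, DESeq2 1.42.0, voom in limma 3.58.1, the number of genes with a count as covariate, leaving out 8 loci above 5% of a library, and leaving out each library. H3K27ac and open chromatin counts per peak, deposited by the authors, served only to say whether a peak lies at a gene (within 1000 bp). Python 3.11.15 with pandas 2.3.3, scipy 1.17.1 and matplotlib 3.10.9 was used. The number of libraries and the worth of 1 count limit precision. A list member that the rule names is not reported here.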

Additional observations from a re-analysis of the deposited data

Results flagged for a closer look

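In 12 of 102 groups of 4 libraries looked at, 1 library lay far from the other 3 by Dixon's test at the 95% level. Chance flags about 1 in 20 groups, but that rate does not hold for genes picked by smallest p or widest gap, as most of these were, so the number is a description. These were values of 11 genes and 1 library measure. In depressive COX-negative library 2, Pgap1 had 415.8 CPM, Ankrd23 167.3 CPM, Olfr1010 94.2 CPM and Erbb2 64.1 CPM, each far above the other depressive libraries. Prrg2 had 226.0 CPM in depressive library 3 and Fam217b had 0.263 CPM in depressive library 4, again above the others of that group. In euthymic COX-negative library 1, Hey1 had 265.3 CPM and Ppif 4.44 CPM, and Cpne3 had 4.86 CPM in euthymic library 3. Euthymic library 4 had 584.8 CPM for Uts2, the highest of its group, 0 CPM for Olfr385, the lowest, and 27148 genes with a count, also the lowest. By library, depressive library 2 was far from the others in 4 groups and euthymic library 4 in 3.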

How the results depend on the processing

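The edgeR count of 0 genes for depressive against euthymic COX-negative libraries became 1170 without a filter on low counts, 2565 with DESeq2 and 1 with limma's voom, and was 0 in every other fit, each of the 8 with 1 library left out included. Of the 1170 genes, 1033 (88.3%) had over 90% of the higher group's sum in 1 library, and 896 of the 2565 (34.9%) did. The count of 0 for the difference between COX classes became 378 with DESeq2 size factors, 1582 without a filter, 151 with a stricter filter, 1997 with DESeq2 and 280 without dominant loci. The 705 separated genes became 328 with total counts only, and 1444 to 1726 with 1 library left out, where 3 libraries face 4 and separation is easier to reach. Among values of the 47 named genes, 766 kept direction and side of the threshold, 44 of 32 genes passed the threshold with DESeq2 or without a filter, and 5 of 3 genes turned direction. The Polg change turned to −2.03 with voom, and leaving out 1 library gave −0.61 to 1.07 for Polg, −3.76 to 1.31 for Ppif and −0.12 to 3.36 for Nr3c1. Depressive minus euthymic differences of library measures ran from −0.15 to 0.52 for log2 total counts, −547 to 1734 for genes with a count (−589 between medians), −3.11 to 23.1 percentage points for the 14 loci and −0.00458 to 0.00888 for the correlation with span, with 1 library left out. No paired analysis was possible because the columns of the RNA table carry group names and no replicate numbers. The difference between COX classes has no value from the 8 COX-negative libraries alone. A count of 1 was worth up to 0.0745 CPM, so levels near it are not resolved, and the causes of these changes were not tested.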
